A study of Mus musculus with 103 samples.

Results

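The added effect of losing Wapl in cells that also lose Ctcf was measured here as the change in gene expression after deletion of both genes minus the change after deletion of Ctcf alone. It was taken from 8 of the 103 samples of the series, all of them RNA-seq libraries of polyadenylated RNA. The cells were quiescent fibroblasts grown from E13.5 embryos of C57BL/6 mice. The 8 libraries form 4 groups of 2. Ctcf fl/fl cells of clones 1 and 2 were sampled untreated and after 4 h of an adenovirus that expresses Cre recombinase (Adeno-Cre), and Ctcf fl/fl Wapl fl/fl cells of clones 3 and 4 were sampled in the same 2 states. All cells then rested for 10 d. Each clone gave 1 untreated and 1 treated library, so the single and the double deletion were never made in the same clone, and a difference between the clones cannot be told apart from an effect of the added Wapl alleles.

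CTCF is a zinc-finger protein that binds DNA at specific sites and halts cohesin, the ring complex that holds DNA loops together. Wapl opens the ring and releases cohesin from chromatin. In fibroblasts that lack Wapl, cohesin stays bound for longer, and in cells that lack CTCF it is no longer held at CTCF sites. The comparison addresses what the loss of cohesin release does to gene expression once these barriers are gone.

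The deleted genes were lower in every deleted library. Ctcf stood at 13.2 and 11.6 RPKM (reads scaled to transcript length and to library depth) in the untreated Ctcf clones and at 4.23 and 4.04 RPKM after Adeno-Cre. In the double-floxed cells it stood at 9.26 RPKM in clone 3 and 12.5 RPKM in clone 4 before, and at 3.17 and 3.76 RPKM after Adeno-Cre. On the log2(RPKM + 1) scale Ctcf fell by 1.38 after Ctcf deletion and by 1.31 after double deletion, and the difference did not pass the test (standard error of 0.21, limma adjusted p of 0.948). Wapl, which the files list under its older symbol Wapal, was at 3.83 and 5.25 RPKM in untreated and at 5.66 and 5.75 RPKM in Ctcf-deleted clones. In the double-floxed cells it went from 2.72 to 0.902 RPKM in clone 3 and from 3.92 to 1.52 RPKM in clone 4. Both double-deleted libraries lay below the other 6, while the 2 untreated groups overlapped, and the added effect on Wapal was -1.05 ± 0.29, with an adjusted p of 0.0851 in limma that passed the threshold of 0.05 with the clone as a block (adjusted p of 0.0121). The block fit did not hold the treated library of clone 3, so its double-deletion change is that of the clone 4 pair alone. RPKM counts reads over the whole transcript, so RNA from exons outside the deleted part is included.

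The 8 libraries held 16.6 to 38.6 M reads in genes, and 1 RPKM of a gene of median length stood for 47.3 to 110.3 reads. The treated library of clone 3 was deposited in a separate table, so its levels are set across tables wherever they are given here, and it did not enter the main test. The double deletion is thus represented in the test by 1 treated library, that of clone 4, which is assumed to vary like the libraries of the other groups. The test sets it against the mean of both untreated double-floxed clones, without pairing by clone. Every added effect from the main test thus includes part of the difference between clones 3 and 4. For Tgfbi it was 3.91, above the 3.56 and 3.54 taken within clones 3 and 4. For Clec2l it was 2.77, below the 3.13 and 2.85 taken within these clones. Of 10 fibroblast markers, 9 were above 1 RPKM in all 8 libraries, with Pdgfra at 2.99 and 1.33 RPKM and Lum at 0.96 and 0.966 RPKM in the 2 double-deleted libraries. The 4 epithelial and 3 muscle markers checked were under 1 RPKM in all 8 libraries. Macrophage markers were present in both Ctcf clones and in clone 4 and lower in clone 3. The summed level of 6 markers was 510.7 and 249.8 RPKM in untreated and 324.0 and 227.3 RPKM in treated Ctcf clones, 69.2 and 41.1 RPKM in clone 3, and 535.8 and 385.0 RPKM in clone 4. Clone 3 held the Y-linked Eif2s3y (5.07 and 6.35 RPKM) and no Xist, while clone 4 held Xist (3.67 and 3.17 RPKM) and no Eif2s3y, and the Ctcf clones held both. Before any deletion, 692 of 12604 genes (5.49%) differed between the 2 pairs of clones in limma with adjusted p under 0.05, 418 higher (3.32%) and 274 lower (2.17%) in the double-floxed clones. Atp5g2, a subunit gene of the ATP synthase, was at 0.19 to 1.51 RPKM in the 4 Ctcf libraries and at 47.4 to 120.0 RPKM in the 4 Ctcf Wapl libraries. In all, 6 genes were under 2 RPKM in every library of the former and over 20 RPKM in every library of the latter. None of these 6 passed the threshold of the added effect.

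The added effect passed the threshold for 174 of 12604 genes tested (1.38%), 98 of them higher (0.778%) and 76 lower (0.603%), by limma with adjusted p under 0.05. Leaving out 1 library at a time gave 74 to 581, with 90 and 97 without the untreated and treated library of Ctcf clone 1, 74 without the treated one of Ctcf clone 2, 83 without the untreated one of clone 3 and 581 without that of clone 4. The size of these effects ran from 0.74 to 4.67 among the higher and from 0.69 to 4.08 among the lower, on the log2(RPKM + 1) scale, on which folds of weakly expressed genes come out too small. The p-values rest on a spread pooled over all 27 libraries of the larger table, most of them of other genotypes, to which the single treated library of clone 4 adds nothing. Genes with a higher added effect were mostly weakly expressed beforehand, with a median untreated level of 1.0 RPKM, against 20.7 RPKM for those with a lower one and 7.49 RPKM for all genes tested. Both double-deleted libraries lay above all 6 others for 86 of the 98 (87.8%), against 14.4% of all genes tested, and below them for 50 of the 76 (65.8%), against 9.16%. The calls came from these same 6 libraries and the treated one of clone 4. The selection thus favoured such a separation, and these shares are no separate support for the calls. The median added effect of all genes tested was 0.10. Rescaling the libraries by medians of ratios brought that median to -0.003 and gave 65 higher and 93 lower, so the balance between the directions depends on the scaling. Separate fits of the 2 parts called 1997 genes (15.8%) after double deletion, 1324 higher (10.5%) and 673 lower (5.34%), and 966 genes (7.66%) after Ctcf deletion, 635 higher (5.04%) and 331 lower (2.63%). After rescaling, the double deletion gave 715 higher and 907 lower. Of the 635 genes that rose with Ctcf loss, 328 rose with the double deletion (51.7% of the former and 24.8% of the latter), and of the 331 that fell, 230 fell with the double deletion (69.5% and 34.2%). A fit with the clone as a block uses that treated and untreated libraries come from the same clone. It takes the double deletion from the clone 4 pair alone, and its count is given with the other alternatives at the end. A fit of the 4 groups alone, with 3 residual degrees of freedom, called 0 genes in limma, with 926 at an unadjusted p under 0.05.

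**Figure D1:**
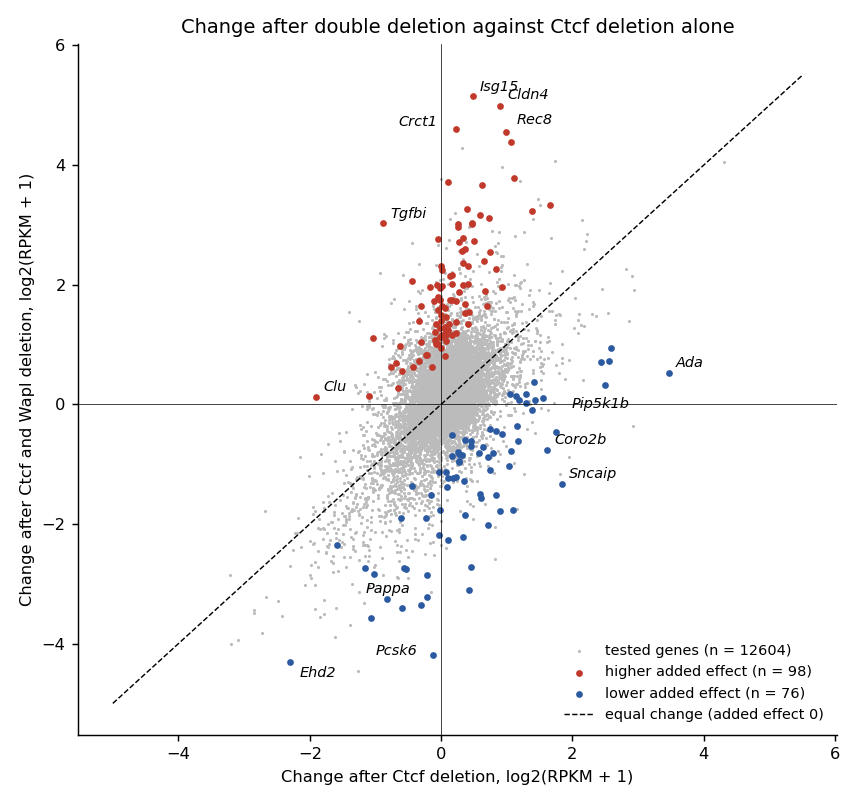
Each point is a gene, with its change after Ctcf deletion on the x axis and its change after double deletion on the y axis, both in log2(RPKM + 1) from the limma fit. Distance from the dashed line is the added effect, and the 98 genes past the threshold above it (red) include 79 that did not pass the threshold after Ctcf deletion, while the 76 below it (blue) include 28 that rose after Ctcf deletion.

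The 98 genes with a higher added effect fell into 4 kinds. Most of them, 79 (80.6%), rose after double deletion and did not pass the threshold after Ctcf deletion. Another 12 rose after both deletions and further after the double one, 1 (C1qtnf1) fell after Ctcf deletion and rose after the double one, and 6 fell after Ctcf deletion without passing the threshold after the double one. The last 6 included Slc2a1, the main glucose transporter of fibroblasts, and Pfkl, an isoform of the glycolytic enzyme phosphofructokinase.

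Crct1, a gene of the epidermal differentiation complex that encodes a cysteine-rich protein, was among the clearest of the first kind. It stood at 0.851 and 2.03 RPKM in untreated and at 1.31 and 2.32 RPKM in Ctcf-deleted clones. In the double-floxed cells it went from 1.41 to 80.1 RPKM in clone 3 and from 3.97 to 82.9 RPKM in clone 4, above all other libraries, and the added effect was 4.38 ± 0.69 (limma adjusted p of 0.00221). Its neighbours in the same complex, Lce1f and Lce1g, which encode late cornified envelope proteins, also passed, with added effects of 1.91 (limma adjusted p of 0.0321) and 2.38 (0.0334). Lce1f lost its call when the treated library of clone 3 was added (adjusted p of 0.129) and Lce1g with the clone as a block (0.0644). Lce1g was at 0.738 to 3.21 RPKM in the 6 libraries without double deletion and at 17.4 and 22.5 RPKM in the double-deleted ones.

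Tgfbi, a secreted matrix protein induced by TGF-beta, was at 19.5 and 21.0 RPKM in untreated and 9.13 and 12.1 RPKM in Ctcf-deleted clones. It went from 17.0 to 114.1 RPKM in clone 3 and from 29.2 to 189.9 RPKM in clone 4. Every Ctcf-deleted library was thus lower and every double-deleted library higher than its untreated partner, and the added effect was 3.91 ± 0.84 (limma adjusted p of 0.0270). Plin2, which coats lipid droplets, was at 67.0 to 115.7 RPKM in the 6 other libraries and at 412.1 and 697.4 RPKM in the double-deleted ones, with an added effect of 2.71 ± 0.58 (limma adjusted p of 0.0267). Nptx2, a secreted neuronal pentraxin, was at 0.819 to 1.90 RPKM in the others and at 15.3 and 22.6 RPKM in the double-deleted libraries (added effect of 2.86 ± 0.28). The transcription factor gene Zic2 was at 0.119 to 2.36 RPKM in the others and at 12.2 and 12.1 RPKM after double deletion (2.80 ± 0.57). Phlda2, an imprinted gene that restrains placental growth, was at 0.111 to 0.939 RPKM in the others and at 9.75 and 8.46 RPKM after double deletion, and was the only 1 of 31 tested genes of the imprinted list past the threshold (2.54 ± 0.33). In each of these 5 genes the double-deleted libraries lay above all the others. Mmp10, a stromelysin that degrades matrix, also rose in both clones but by different amounts, from 0.0319 to 2.80 RPKM in clone 3 and from 0.867 to 17.3 RPKM in clone 4. Its added effect was 3.62 ± 0.44 (limma adjusted p of 0.000175), and it lost its call when the treated library of clone 3 was added (adjusted p of 0.0578).

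Among the 12 genes that rose after Ctcf deletion and rose further after double deletion were Cldn4 and Rec8. Cldn4 encodes a claudin of epithelial tight junctions. It stood at 0.0807 and 0.0751 RPKM in untreated and at 1.42 and 0.660 RPKM in Ctcf-deleted clones. It went from 0.060 to 18.5 RPKM in clone 3 and from 0.377 to 37.1 RPKM in clone 4. The 3 levels, untreated, Ctcf-deleted and double-deleted, did not overlap, and the added effect was 4.08 ± 0.32, with a limma adjusted p of 1.96e-06. Rec8, the cohesin subunit that replaces Rad21 in meiosis, stood at 0.0957 and 0 RPKM in untreated and at 2.11 and 0.384 RPKM in Ctcf-deleted clones. Rec8 went from 0.0267 to 15.3 RPKM in clone 3 and from 0.140 to 24.4 RPKM in clone 4. Its added effect was 3.57 ± 0.39 (limma adjusted p of 4.93e-05), and it was the only 1 of 14 tested cohesin genes past the threshold, Wapal itself not being past it. Nefm, a neurofilament subunit, showed the same order of levels, at 0.337 to 0.355 RPKM in untreated and 0.870 to 3.30 RPKM in deleted Ctcf clones, then 6.45 and 25.4 RPKM after double deletion from 0.0589 and 0.493 RPKM. Slc29a4, a membrane transporter of monoamines, reached 35.3 and 22.0 RPKM after double deletion from 0.528 and 1.15 RPKM (3.05 ± 0.30), and was at 0.0816 to 1.11 RPKM in the Ctcf libraries. Of the 8 tested epithelial markers, only Cldn4 passed the threshold of the added effect. After the double deletion 4 rose (10.5% of all genes), and after Ctcf deletion 3 rose (5.04% of all genes).

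**Figure D2:**
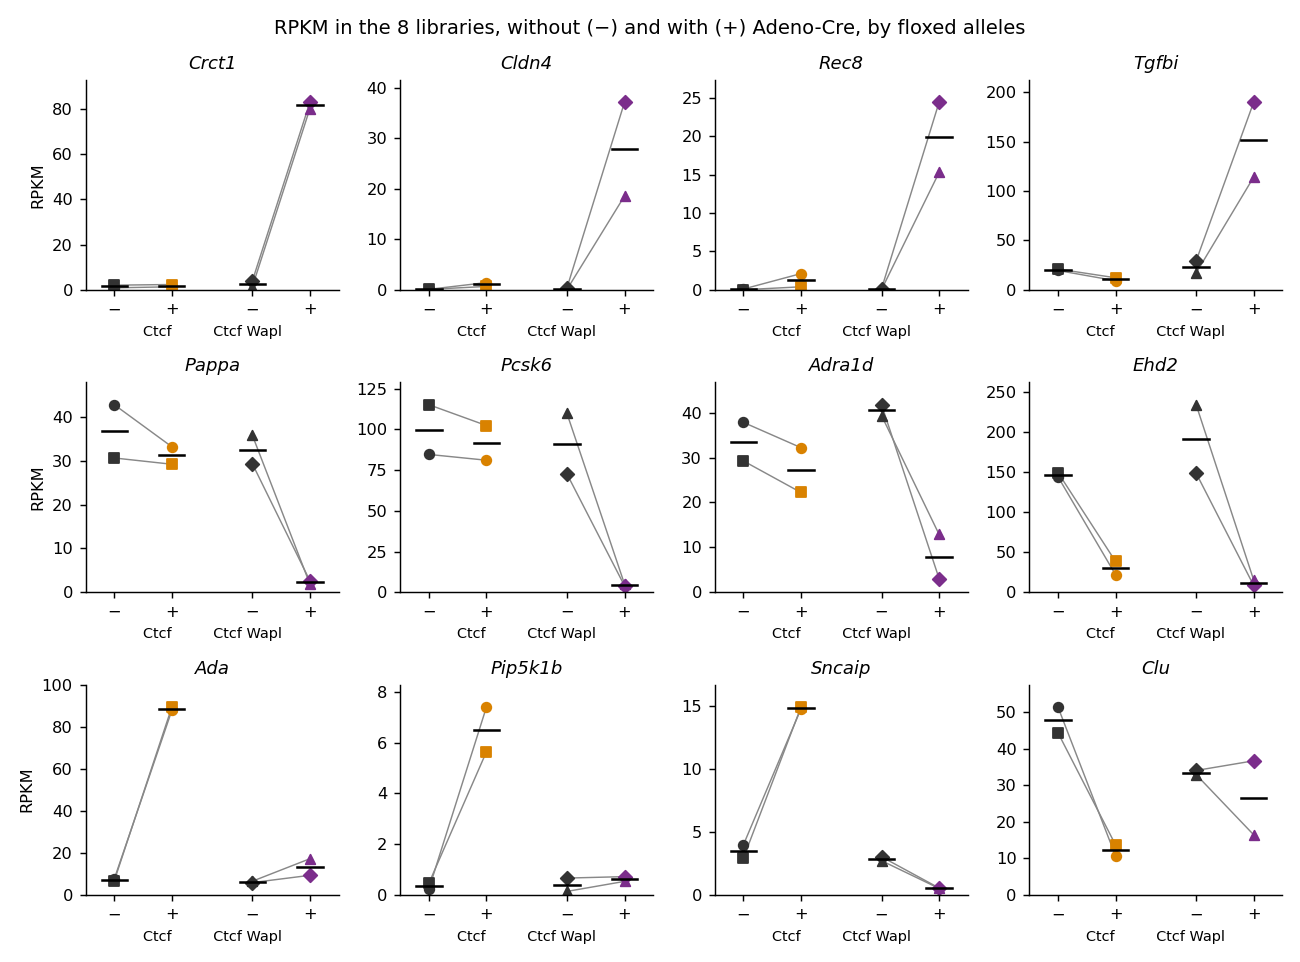
RPKM (y axis, linear and from 0) of 12 genes in the 8 libraries, without (−) and with (+) Adeno-Cre, with Ctcf floxed clones at the left (circles clone 1, squares clone 2) and Ctcf Wapl floxed clones at the right (triangles clone 3, diamonds clone 4) of each panel. Lines join the libraries of 1 clone and bars mark group means; Crct1 reached 80.1 and 82.9 RPKM in the right pair against 1.31 and 2.32 RPKM in the left one, and Ada reached 87.8 and 89.4 RPKM in the left pair against 17.2 and 9.24 RPKM in the right one.

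Of the 76 genes with a lower added effect, 41 (53.9%) fell after double deletion without passing the threshold after Ctcf deletion, and 6 (7.9%) fell after both. Pappa, a secreted protease that frees insulin-like growth factors from their binding proteins, was at 42.8 and 30.6 RPKM in untreated and at 33.2 and 29.2 RPKM in Ctcf-deleted clones. Pappa went from 35.8 to 1.85 RPKM in clone 3 and from 29.3 to 2.59 RPKM in clone 4. The double-deleted libraries lay below all the others, and the added effect was -3.005 ± 0.35 (limma adjusted p of 0.000104). Pcsk6, a proprotein convertase, fell to 5.01 and 3.94 RPKM after double deletion, against 72.6 to 115.2 RPKM in the other 6 libraries (-4.08 ± 0.89, limma adjusted p of 0.0292). Adamts2, which trims procollagen, was at 108.6 to 180.6 RPKM in the Ctcf libraries and went from 72.1 to 13.8 RPKM in clone 3 and from 29.5 to 6.18 RPKM in clone 4 (-3.18 ± 0.59, limma adjusted p of 0.00897). Ddah1, which breaks down methylated arginines, was at 13.7 to 26.6 RPKM in the others and at 4.39 and 3.49 RPKM in the double-deleted libraries (-2.55 ± 0.35). The adrenergic receptor gene Adra1d fell from 39.3 to 12.9 RPKM in clone 3 and from 41.8 to 3.04 RPKM in clone 4, against 22.2 to 37.8 RPKM in the Ctcf libraries (-3.06 ± 0.49, limma adjusted p of 0.00239). The clones thus agreed in direction and differed in size for Adra1d, which lost its call when the treated library of clone 3 was added (adjusted p of 0.0720).

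The 6 genes that fell after both deletions included Itga11, the alpha subunit of a collagen-binding integrin, and Ehd2, an ATPase at the neck of caveolae. Itga11 went from 149.1 and 203.0 to 73.1 and 93.1 RPKM in the Ctcf clones and from 166.7 and 184.2 to 16.2 and 13.8 RPKM in the double-floxed clones (-2.50 ± 0.41, limma adjusted p of 0.00260). Ehd2 went from 143.7 and 149.0 to 21.8 and 38.3 RPKM and from 233.6 and 148.3 to 15.2 and 8.42 RPKM (-2.01 ± 0.47, limma adjusted p of 0.0423, and 0.0743 when the treated library of clone 3 was added). In both genes, the order from untreated through Ctcf-deleted to double-deleted held without overlap.

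A second large kind among the lower genes consisted of genes that rose when Ctcf alone was lost and rose less, or not at all, when Wapl was lost with it. There were 28 of them among the 635 genes that rose with Ctcf loss, 20 not past the threshold after double deletion, 5 lower after it and 3 still higher. Another 12 of the 635 had a higher added effect, where 0.603% of all genes were lower and 0.778% higher. The Ctcf change is subtracted in the added effect, so a high Ctcf-deleted library favours both the rise and the lower added effect. The number of such genes is therefore no separate result. Ada, the enzyme adenosine deaminase, went from 7.50 and 6.68 to 87.8 and 89.4 RPKM after Ctcf deletion. After double deletion it reached only 17.2 RPKM from 6.43 in clone 3 and 9.24 RPKM from 5.77 in clone 4, far below the Ctcf-deleted clones, and the added effect was -2.94 ± 0.66 (limma adjusted p of 0.0334). Pip5k1b, a phosphoinositide kinase gene, went from 0.223 and 0.451 to 7.41 and 5.64 RPKM after Ctcf deletion, against 0.526 and 0.713 RPKM after double deletion from 0.130 and 0.656 (-2.16 ± 0.27, limma adjusted p of 0.000194). The glycine decarboxylase gene Gldc, the urea transporter gene Slc14a1 and the microtubule-associated Slain1 were near silent in untreated cells and rose in both settings, to unequal levels. Gldc reached 6.27 and 5.80 RPKM with Ctcf loss and 0.860 and 1.45 RPKM with double loss (-1.64 ± 0.21). Slc14a1 reached 7.92 and 6.27 RPKM against 1.70 and 0.992 RPKM (-1.84 ± 0.23), and Slain1 5.38 and 4.90 RPKM against 0.738 and 0.790 RPKM (-1.72 ± 0.28). Untreated levels of all 3 were under 0.4 RPKM in the 4 untreated libraries.

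In 5 of the 76 genes the 2 deletions had opposite signs, each past the threshold. Sncaip, which encodes a protein that binds alpha-synuclein, rose from 3.98 and 2.92 to 14.8 and 14.9 RPKM after Ctcf deletion and fell from 2.71 to 0.50 RPKM in clone 3 and from 3.02 to 0.531 RPKM in clone 4 after double deletion. Its added effect was -3.18 ± 0.29 (limma adjusted p of 1.42e-05). The receptor tyrosine kinase gene Epha1 rose from 3.18 and 3.09 to 9.35 and 6.46 RPKM and fell from 3.895 to 1.73 RPKM and from 6.30 to 0.761 RPKM (-2.85 ± 0.36, limma adjusted p of 0.000196). Smoc2, a secreted calcium-binding matrix protein, rose from 130.9 and 126.2 to 261.8 and 269.6 RPKM and went from 122.6 to 90.1 RPKM and from 95.1 to 52.2 RPKM (-2.08 ± 0.33, limma adjusted p of 0.00228). Clu, the chaperone clusterin, is 1 of the 6 higher genes that fell after Ctcf deletion without passing the threshold after the double one, and went from 51.4 and 44.4 to 10.6 and 13.6 RPKM after Ctcf deletion. In the double-floxed cells Clu went from 32.9 to 16.4 RPKM in clone 3 and from 34.04 to 36.7 RPKM in clone 4, so the clones disagreed, and its call (2.03 ± 0.41, limma adjusted p of 0.0152) was lost when the treated library of clone 3 was added (adjusted p of 0.101).

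Slc2a1 went from 64.2 and 50.9 to 30.9 and 36.2 RPKM after Ctcf deletion and from 61.5 to 60.2 RPKM in clone 3 and from 36.4 to 73.5 RPKM in clone 4 after double deletion (1.38 ± 0.33, limma adjusted p of 0.0449). Pfkl went from 22.9 and 21.2 to 13.6 and 13.0 RPKM, against 19.8 to 39.4 and 27.6 to 38.5 RPKM (1.38 ± 0.31, limma adjusted p of 0.0318). Pfkp, another phosphofructokinase isoform, stayed at 6.44 to 8.11 RPKM in the 4 Ctcf libraries and rose from 8.10 to 21.7 RPKM and from 13.99 to 37.9 RPKM with double deletion (1.85 ± 0.33, limma adjusted p of 0.00562). These 3 genes were picked after their values had been seen, from no list. Slc2a1 and Pfkp lost their calls when the treated library of clone 3 took the place of that of clone 4 (limma adjusted p of 0.0689 and 0.07).

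Promoter sequences are shown for 6 of the genes above and below because Ctcf, one of the deleted genes, encodes a DNA-binding protein, and because the interferon genes moved together. The windows are 300 bases, from 250 before to 50 after the start, from RefSeq on GRCm38.p6, which held 116 of the 174 genes. The motifs searched on both strands were the CTCF core (CC, any base, C, any 2 bases, GG, any base, GGC), the interferon-stimulated response element (GAAA, any 2 bases, GAAA), the AP-1 site TGANTCA and the sterol regulatory element TCACNCCAC. They do not overlap in the windows shown except that the 3 interferon elements of Isg15 overlap one another. All 6 windows shown hold a match, which does not describe the named genes in general. Of the 30 genes named for the highest and lowest added effects, 19 had a window. Those of Rec8, Slc29a4, Plin2, Pcsk6, Adamts2 and Ada, among others, held no match. Matches are in capitals, as the CTCF core in Epha1 (chr6:42373219-42373518, minus strand), Coro2b (chr9:62536995-62537294, minus strand) and Heg1 (chr16:33684216-33684515, plus strand), the interferon element in Isg15 (chr4:156200769-156201068, minus strand), and the AP-1 site in Cldn4 (chr5:134946885-134947184, minus strand) and Mmp10 (chr9:7502092-7502391, plus strand).
Epha1: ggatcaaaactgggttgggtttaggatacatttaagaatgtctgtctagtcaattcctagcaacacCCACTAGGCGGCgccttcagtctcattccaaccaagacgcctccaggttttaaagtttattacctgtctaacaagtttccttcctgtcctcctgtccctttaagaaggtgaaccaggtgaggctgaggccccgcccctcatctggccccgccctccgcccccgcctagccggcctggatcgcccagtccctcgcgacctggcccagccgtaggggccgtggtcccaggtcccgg
Coro2b: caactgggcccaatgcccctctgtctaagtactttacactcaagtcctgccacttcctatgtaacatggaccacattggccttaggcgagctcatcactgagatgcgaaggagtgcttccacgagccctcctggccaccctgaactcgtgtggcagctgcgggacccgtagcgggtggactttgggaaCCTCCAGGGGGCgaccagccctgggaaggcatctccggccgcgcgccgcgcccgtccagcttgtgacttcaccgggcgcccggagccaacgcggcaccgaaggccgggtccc
Heg1: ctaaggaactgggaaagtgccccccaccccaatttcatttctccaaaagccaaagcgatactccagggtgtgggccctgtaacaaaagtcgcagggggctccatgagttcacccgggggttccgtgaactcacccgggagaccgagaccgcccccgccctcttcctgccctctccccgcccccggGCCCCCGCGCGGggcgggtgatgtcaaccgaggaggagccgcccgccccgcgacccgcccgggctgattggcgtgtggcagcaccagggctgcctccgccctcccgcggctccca
Isg15: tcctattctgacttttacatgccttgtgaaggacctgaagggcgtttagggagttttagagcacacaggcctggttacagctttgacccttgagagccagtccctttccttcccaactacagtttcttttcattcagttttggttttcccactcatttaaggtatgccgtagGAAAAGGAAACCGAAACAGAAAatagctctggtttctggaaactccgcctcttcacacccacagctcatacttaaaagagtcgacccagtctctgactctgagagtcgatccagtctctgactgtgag
Cldn4: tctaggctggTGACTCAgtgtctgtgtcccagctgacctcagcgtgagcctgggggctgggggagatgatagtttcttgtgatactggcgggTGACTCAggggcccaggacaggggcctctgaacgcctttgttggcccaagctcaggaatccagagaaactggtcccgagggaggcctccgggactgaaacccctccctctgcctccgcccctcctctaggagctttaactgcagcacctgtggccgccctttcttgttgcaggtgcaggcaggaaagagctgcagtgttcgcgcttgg
Mmp10: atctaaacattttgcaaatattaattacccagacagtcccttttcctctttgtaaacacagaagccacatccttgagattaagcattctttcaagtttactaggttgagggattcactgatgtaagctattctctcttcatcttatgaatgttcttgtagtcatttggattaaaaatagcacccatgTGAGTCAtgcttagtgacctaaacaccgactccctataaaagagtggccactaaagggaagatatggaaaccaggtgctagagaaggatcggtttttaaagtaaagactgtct

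The CTCF core was found in 9 of 46 windows of genes with a lower added effect (19.6%) and in 3 of 70 of those with a higher one (4.3%), against 4.07% of all 32544 promoters and 6.3% of 9146 promoters of genes tested. Among the 46, it was in 3 of 13 genes that rose after Ctcf deletion and in 6 of 33 of the rest. Its share was 12.1% of 214 windows of genes that fell after Ctcf deletion and 7.4% of 446 of those that rose. The interferon element was in 24 of 50 windows of the interferon list (48.0%) and in 3.45% of all promoters, and the AP-1 site in 8 of 70 windows of genes with a higher added effect (11.4%) and in 7.79% of all. The sterol element was in 0 of 70 windows of genes with a higher added effect and 0 of 46 with a lower one. It was in 1 of 17 windows of the cholesterol synthesis list (5.9%) and in 1.24% of all promoters. Over the 9146 promoters of genes tested, the shares were 2.9% for the interferon element, 5.0% for the AP-1 site and 1.0% for the sterol element. These shares describe letters in fixed windows, and no difference between them was tested. Of the genes printed, Heg1, an endothelial and fibroblast membrane protein, was at 108.3 to 168.1 RPKM in the Ctcf libraries and went from 152.7 to 55.3 RPKM in clone 3 and from 71.5 to 13.6 RPKM in clone 4 (-2.64 ± 0.53), a call that was lost when the treated library of clone 3 was added (limma adjusted p of 0.248). Coro2b, an actin-binding coronin, went from 4.50 and 4.46 to 15.8 and 15.8 RPKM after Ctcf deletion, and from 4.10 and 4.99 to 2.27 and 2.27 RPKM after double deletion (-2.38 ± 0.33, limma adjusted p of 0.000542).

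Gene lists were described by their counts and medians, beside a median added effect of 0.10 over all genes tested. Counts of the added effect in every list stand against 0.778% higher and 0.603% lower over all genes. The cholesterol synthesis list, which holds the enzymes of the pathway and other targets of SREBP2, had a median added effect of -1.33 over 25 tested genes, none of which passed the threshold on its own. Its median change was 0.10 and -0.14 in the 2 Ctcf clones and -1.41 and -1.07 in clones 3 and 4. Insig1, which holds SREBP in the endoplasmic reticulum, was at 29.4 to 46.9 RPKM in the Ctcf libraries and went from 79.6 to 19.3 RPKM and from 46.4 to 11.1 RPKM (-2.36 ± 0.60, limma adjusted p of 0.0594). After double deletion 9 of the 25 fell and none rose, where 5.34% of all genes fell and 10.5% rose, and after Ctcf deletion none passed. The median after Wapl deletion in cells with Ctcf was 0.21.

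Of 58 tested extracellular matrix genes, 20 fell and none rose after double deletion, where 5.34% of all genes fell and 10.5% rose. After Ctcf deletion 6 fell and 1 rose, where 2.63% of all genes fell and 5.04% rose. The median added effect of the list was -0.57. Past the threshold of the added effect were the elastic fibre genes Fbln5 and Fbn2. Fbln5 was at 156.5 to 164.5 RPKM in untreated and at 225.3 and 260.9 RPKM in deleted Ctcf clones. Fbln5 went from 179.8 to 111.8 RPKM in clone 3 and from 262.2 to 76.1 RPKM in clone 4 (-2.09 ± 0.37, limma adjusted p of 0.00626). Fbn2 was at 46.2 to 118.1 RPKM in the Ctcf libraries and went from 73.7 to 18.4 RPKM and from 31.2 to 16.2 RPKM (-2.34 ± 0.55, limma adjusted p of 0.0431, and 0.0634 with the clone as a block). Of 16 tested fibroblast markers, Pdgfrb, the PDGF receptor beta chain, passed with an added effect of -1.48 ± 0.27 (limma adjusted p of 0.00755), at 149.5 to 179.7 RPKM in the 6 other libraries and at 63.4 and 57.0 RPKM in the double-deleted ones. The median of the marker list was -0.64. In bulk libraries fewer cells of a type and less RNA per cell cannot be told apart.

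The interferon response list, genes induced by antiviral signalling, had the highest median of the lists with at least 20 tested genes, at 1.32 over 63 genes, of which 7 passed as higher and none as lower, where 0.778% of all genes were higher and 0.603% lower. These included Isg15, Gbp3, Ifi44 and Oasl1. Ifi44 lost its call when the treated library of clone 3 was added (limma adjusted p of 0.123) and Oasl1 with the clone as a block (0.0522). Isg15, a ubiquitin-like protein, was at 228.8 and 51.9 RPKM in untreated and at 134.6 and 172.5 RPKM in Ctcf-deleted clones. In the double-floxed cells Isg15 went from 7.02 to 325.1 RPKM in clone 3 and from 10.4 to 338.0 RPKM in clone 4. Isg15 was thus higher in both untreated Ctcf clones than in both untreated double-floxed clones, and the added effect of 4.67 ± 1.10 (limma adjusted p of 0.0431) includes that difference. The call was lost when any 1 of 4 libraries was left out, namely either library of Ctcf clone 1, the treated library of Ctcf clone 2 or the untreated library of clone 3, with a limma adjusted p of up to 0.153 for Isg15. In untreated cells 17 of the 63 were lower in the double-floxed clones than in the Ctcf clones, as were 2.17% of all genes, with a median difference of -0.85. In wild-type cells given Adeno-Cre 29 of the 63 rose and none fell, with a median of 1.43 and a rise of Isg15 by 3.73. In the same cells 408 of all genes tested (3.24%) changed, 340 higher (2.7%) and 68 lower (0.54%). The unequal start and the exposure to the virus cannot be told apart from the deletion of Wapl here.

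Of 29 tested p53 pathway genes 1 was higher, where 0.778% of all genes were higher. It was Cdkn1a (1.14 ± 0.26, limma adjusted p of 0.0364). That call was lost with the clone as a block (limma adjusted p of 0.0635) and with the treated library of clone 3 added (0.168). Of 29 tested integrated stress response genes 1 was lower, Aldh1l2 (-1.61 ± 0.37, limma adjusted p of 0.039). The clustered protocadherin, histone, ribosomal protein and macrophage lists had no member past the threshold. Of 33 tested clustered protocadherin genes, whose choice of promoter depends on CTCF and cohesin, 26 fell after Ctcf deletion (2.63% of all genes) and 24 after double deletion (5.34% of all genes), with a median added effect of -0.27. Of 33 histone genes, 17 rose after Ctcf deletion (5.04% of all genes) and 18 after double deletion (10.5% of all genes), with a median added effect of 0.05, and 24 of them also rose in wild-type cells given Adeno-Cre. Ribosomal protein genes had a median added effect of -0.54 in the test, and of 0.42 when the treated library of clone 3 took the place of that of clone 4. The clones differed, with median changes of 0.61 in clone 3 and -0.18 in clone 4. Macrophage markers had median changes of -0.78 in clone 3 and -0.20 in clone 4 over 20 genes. The median added effect was 1.2 in the test, which sets the treated library of clone 4 against both untreated clones, 0.19 with the clone as a block, and -1.24 when the treated library of clone 3 took the place of that of clone 4, and their summed level was lowest in both libraries of clone 3. Genes that face a convergent neighbour, where cohesin is known to gather without CTCF and Wapl, gave 14 higher and 9 lower of 2054, where 0.778% of all genes were higher and 0.603% lower, and a median of 0.10, the same as that of all genes tested.

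**Figure D3:**
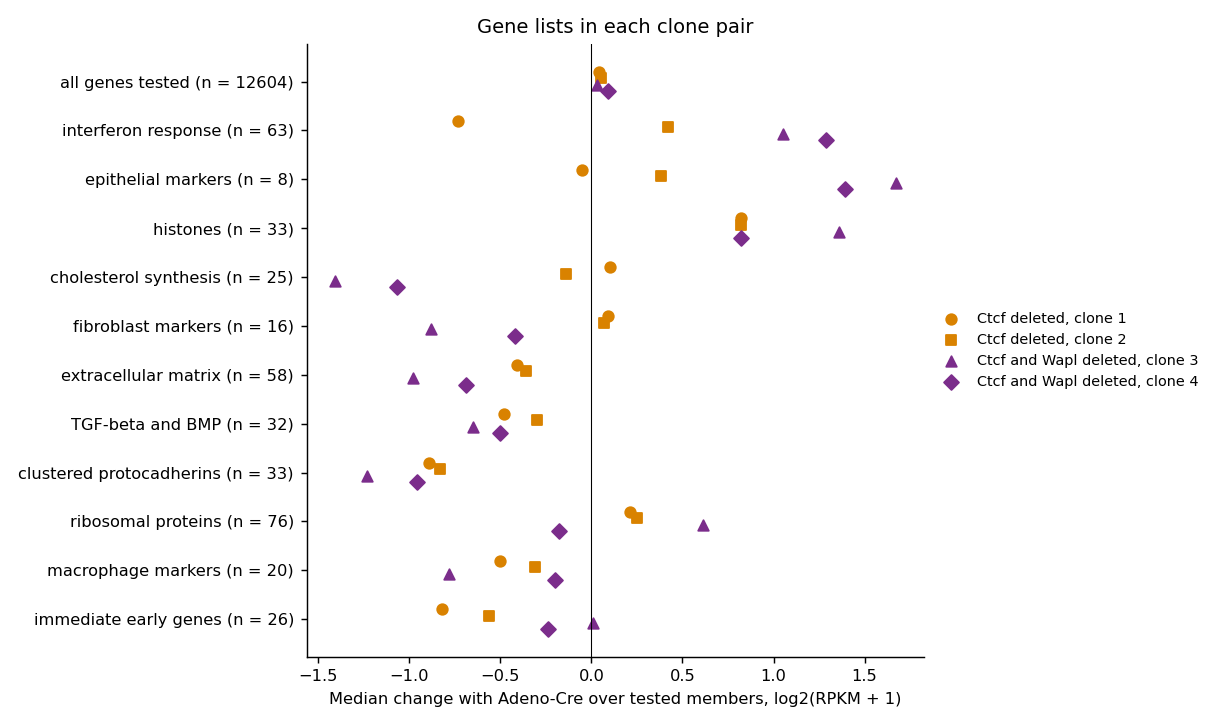
Median change with Adeno-Cre (x axis, log2(RPKM + 1)) over the tested members of each list (y axis, number of members in brackets) in the 2 Ctcf clones (orange) and the 2 Ctcf Wapl clones (purple). Both purple marks lie to the left of both orange ones for cholesterol synthesis, fibroblast markers, extracellular matrix, clustered protocadherins, and TGF-beta and BMP. For ribosomal proteins the purple marks lie on both sides.

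Loss of Wapl in cells that kept Ctcf was measured in Wapl floxed cells with 1 null allele, in which hydroxytamoxifen activates Cre, and called 306 genes (2.43%), 189 higher (1.5%) and 117 lower (0.928%). These libraries are shared with neither part of the added effect. Of the 98 genes with a higher added effect, 18 also rose after Wapl loss alone, and of the 76 with a lower one 4 fell and 1 rose. Across the 174 genes the added effect and the Wapl change correlated at r = 0.39 and across all 12604 at r = 0.10, given as a description over genes, which are not independent. Nxph4, a secreted neurexophilin, rose in both settings, from 0.798 and 1.62 to 30.0 and 26.8 RPKM with Wapl loss alone and from 4.30 and 6.52 to 151.7 and 86.2 RPKM with double loss, against 12.2 and 10.9 RPKM in the Ctcf-deleted clones (added effect of 2.67 ± 0.43). Clec2l rose from 1.05 and 0.594 to 4.48 and 2.93 RPKM with Wapl loss alone and from 0.305 and 0.160 to 12.6 and 8.96 RPKM with double loss. Ak5, an adenylate kinase, fell in all 3 settings, from 15.2 and 21.0 to 3.97 and 7.68 RPKM with Wapl loss, and after double deletion to 0.807 and 1.006 RPKM against 5.99 and 6.40 RPKM with Ctcf loss.

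The response to Wapl loss differed between cells without and with Ctcf for 83 genes (0.659%), 33 higher (0.262%) and 50 lower (0.397%) without Ctcf, by a contrast of the added effect with the Wapl change in the same limma model. The means of inducing Cre and the untreated state of the Wapl locus differ between the 2 settings, so these cannot be told apart from the presence of Ctcf. Cldn4 differed most among the named genes, by 4.11 ± 0.38 (limma adjusted p of 2.77e-05), with 0 RPKM in both Wapl-deleted libraries. Rec8 was at 0 RPKM in all 4 libraries of the Wapl floxed cells and differed by 3.57 ± 0.46 (limma adjusted p of 0.000787). Plin2 went from 290.3 and 239.6 to 90.0 and 171.8 RPKM with Wapl loss alone, the other way from its rise after double deletion, and differed by 3.79 ± 0.69 (limma adjusted p of 0.0111). Ddah1 differed by -3.17 ± 0.41 (limma adjusted p of 0.000787), at 2.84 and 3.10 RPKM before and 6.12 and 4.21 RPKM after Wapl loss alone.

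**Figure D4:**
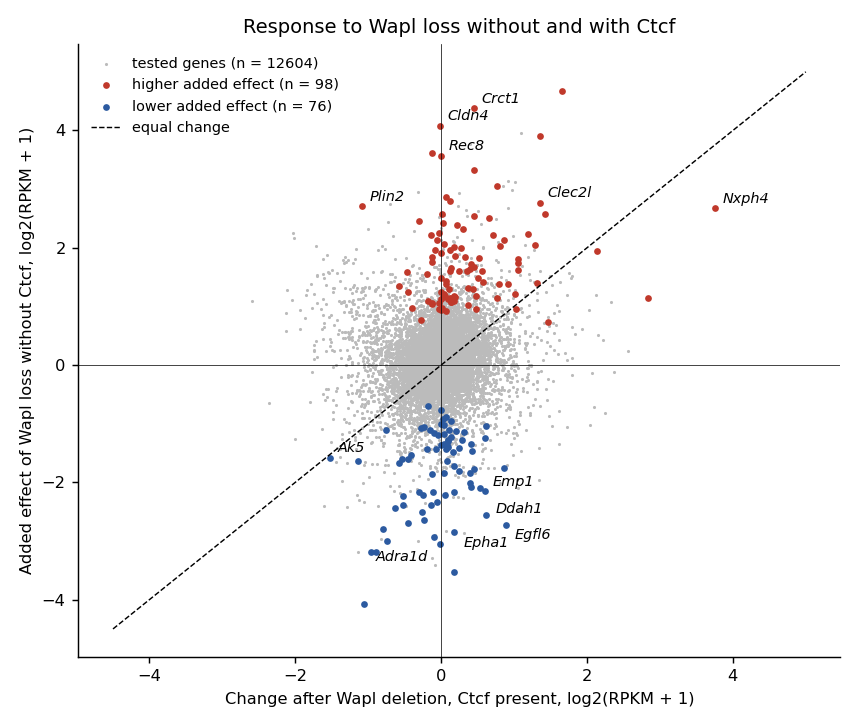
Change after Wapl deletion with Ctcf present (x axis) against the added effect of Wapl loss without Ctcf (y axis), both in log2(RPKM + 1), for 12604 genes. Of the 98 genes with a higher added effect (red) 18 passed the threshold as higher after Wapl deletion, among them Nxph4, at 3.76 on the x axis and 2.67 on the y axis.

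Nascent RNA of double-floxed cells had been measured by GRO-seq, in which engaged polymerases are run on in isolated nuclei, before and after Adeno-Cre. The deposited TPM values pool 2 libraries in each column and sum to 200000, so there is no replicate error and only shares can be compared. The series holds no GRO-seq of cells with Ctcf alone deleted, so these values bear on the double deletion and not on the added effect. For all tested genes with a value the median change on the log2(TPM + 1) scale was -0.60, with 80.7% of 12597 genes below 0. Of the genes with a higher added effect, 55 of 97 were above 0 (56.7%, median of 0.24), and of those with a lower one 74 of 76 were below 0 (97.4%, median of -1.16). Crct1 went from 0.653 to 26.9 TPM, Cldn4 from 0 to 12.1 TPM and Phlda2 from 0 to 9.21 TPM. Pappa went from 27.5 to 2.82 TPM, Galntl4 from 16.3 to 0.859 TPM and Adra1d from 18.97 to 1.82 TPM. Tgfbi moved from 1.92 to 3.00 TPM, and Clec2l, at 12.6 and 8.96 RPKM after double deletion, moved from 0.840 to 0.758 TPM.

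**Figure D5:**
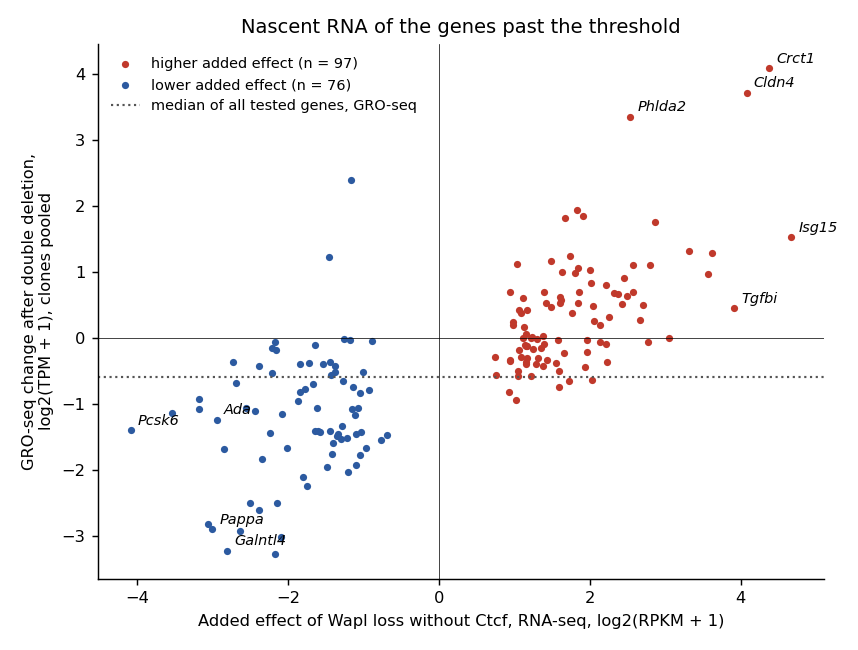
GRO-seq change after double deletion (y axis, log2(TPM + 1), 2 libraries pooled per state) against the added effect in RNA-seq (x axis, log2(RPKM + 1)) for the genes past the threshold. The lower genes (blue) lie below 0 in 74 of 76 cases, and the dotted line marks the median of all tested genes at -0.60.

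Of the 30 genes with the highest and lowest added effects under the naming rule, 20 stayed past the threshold in every fit that left out 1 of the other 6 libraries in turn and still tested them, which was 5 of 6 fits for Cldn4 and Nefm. The exceptions were Isg15, Tgfbi, Zic2, Plin2, Pcsk6, Crabp1, Ada, Galntl4, Egfl6 and Heg1, whose highest adjusted p in these fits ran from 0.061 (Zic2) to 0.194 (Egfl6). The named genes not described above were Stmn4 and Apol9a among the higher and Crabp1, Galntl4, Egfl6 and Pdgfrl among the lower. Stmn4, a stathmin, went from 0.244 to 2.87 RPKM in clone 3 and from 1.39 to 14.4 RPKM in clone 4, and lost its call when the treated library of clone 3 was added (limma adjusted p of 0.2). Apol9a, an interferon-induced apolipoprotein L, went from 0.380 to 16.2 RPKM and from 0.579 to 11.1 RPKM, against 1.96 to 6.79 RPKM in the Ctcf libraries. Crabp1, which binds retinoic acid, went from 23.2 to 5.95 RPKM and from 8.09 to 0.715 RPKM, against 27.0 to 51.1 RPKM in the Ctcf libraries, and its limma adjusted p of 0.0449 became 0.0629 with the clone as a block and 0.179 with the treated library of clone 3 added. Galntl4 went from 71.8 to 7.85 RPKM and from 87.8 to 6.62 RPKM, against 53.3 to 83.4 RPKM in the Ctcf libraries. Egfl6, a secreted matrix protein, went from 11.0 to 5.85 RPKM and from 6.15 to 1.29 RPKM, against 22.9 to 81.3 RPKM in the Ctcf libraries, with a limma adjusted p of 0.0449 that became 0.186 with the treated library of clone 3 added. Pdgfrl, a PDGF receptor-like protein, went from 59.2 to 5.69 RPKM and from 37.2 to 4.04 RPKM, against 28.1 to 60.3 RPKM in the Ctcf libraries.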

How the data were processed

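RNA-seq levels were deposited by the authors as RPKM per gene in 2 tables, and GRO-seq levels as TPM, with both states of the double-floxed cells (clones 1 and 2) pooled by the authors. The submitters' processing notes name the build mm9 and the tools TopHat 1.3.1 and 1.4.1, Bowtie 0.12.5 and HTSeq, with no role or order. Low values of 18150 of 18155 genes (99.97%) lay on whole read steps within 0.02 reads, which gave the depth. The treated library of clone 3 lies in the second table, was set beside the others as values, and entered alternatives only. Values were tested as log2(RPKM + 1) in limma 3.58.1 (R 4.3.3) with Benjamini-Hochberg adjustment over 12604 genes of at least 1 RPKM in at least 2 libraries. All RNA-seq groups of the larger table (27 libraries) shared 1 estimate of spread, with 15 residual degrees of freedom. The pairing of a clone's untreated and treated libraries comes from the clone in the labels, and their deviations from the group means correlated at 0.68 across genes in Ctcf and 0.64 in Ctcf Wapl clones, so a fit with the clone as a block is given where it changes a call.

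Genes were named as the 15 highest and 15 lowest added effects past the threshold, with the same sign in all 4 combinations of clones and a group mean of at least 5 RPKM, with 5 in each direction for the contrast with Wapl loss, and members of lists past the threshold; other genes were picked after their values were seen. The members and the gene lists were chosen with earlier results of these data known. Another library of clone 3 with the same labels and the DRB and wild-type GRO-seq columns were not used here. The test was also run on simulated data in which each library varied independently. Those data lack the shared deviations of a clone's libraries, so the run cannot show how these affect the test. Alternatives changed the pseudocount, the filter on low values, the scaling, a trend with gene length, the libraries in the fit, the block and the use of the clone 3 library. Promoter sequences are from RefSeq on GRCm38.p6, a different build from that of the files, and were matched by symbol.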

Additional observations from a re-analysis of the deposited data

Results flagged for a closer look

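The response to Wapl loss was compared between cells without and with Ctcf by testing the difference of the 2 responses in limma, and 83 genes differed. On the log2(RPKM + 1) scale the difference was 4.11 for Cldn4, 3.92 for Crct1, 3.79 for Plin2, 3.74 for Mmp10 and 3.57 for Rec8, all higher without Ctcf. It was -3.61 for Egfl6, -3.17 for Ddah1, -3.05 for Adra1d, -3.03 for Epha1 and -2.75 for Emp1, all lower without Ctcf. Egfl6 went from 24.8 and 34.7 to 49.99 and 61.2 RPKM with Wapl loss alone, and Emp1 from 297.6 and 305.7 to 588.3 and 358.5 RPKM. Cre was induced by Adeno-Cre in the former cells and by hydroxytamoxifen in the latter, and its part in these differences cannot be told apart.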

How the results depend on the processing

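None of the 30 genes named for the highest and lowest added effects changed direction under the alternatives that tested them (21 of 30 under the filter at 5 RPKM). The naming rule had already required the same sign in all 4 combinations of clones, clone 3 included. A change of direction was therefore unlikely in advance, and its absence is no separate support. The added effect on Ctcf, not past the threshold, was 0.07 and turned to -0.12 with the replicate block and to -0.02 with the treated library of clone 3 added. The counts of genes past the threshold were 174 for the added effect, 1997 for the double deletion, 966 for Ctcf deletion, 83 for the contrast with Wapl loss and 692 between untreated lines. A pseudocount of 0.1 gave 64 for the added effect and 44 for the contrast, no filter 788 and 509, and a filter at 5 RPKM 57 and 43. Fitting the compared groups only gave 0, 278, 73, 1 and 198 in the order above (926 and 1108 at an unadjusted p under 0.05 for the added effect and the contrast). The replicate block gave 632 for the added effect, 3155 for Ctcf deletion, 414 for the contrast and 3533 between lines. The treated library of clone 3 in place of that of clone 4 gave 532, 3144 and 201 for the added effect, the double deletion and the contrast, and with it added to the replicate block the 5 counts were 1526, 5330, 2760, 847 and 3129. Subtracting the Cre-ER control left 41 for the contrast. Leaving out 1 library gave 74 to 581 for the added effect, 1060 to 2854 for the double deletion, 379 to 744 for Ctcf deletion, 36 to 318 for the contrast and 389 to 1175 between lines. Leaving out the treated library of clone 4 gives no value. Under the replicate block, with or without the treated library of clone 3, the counts between lines rest on the spread within clones. They leave out the spread between the clones of a line, so they cannot be set beside the count from the main fit. The cause of these shifts was not tested.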
